A study of Mus musculus with 3 samples.

Results

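Glutathione S-transferases (Gst), cytochrome P450 enzymes (Cyp), UDP-glucuronosyltransferases (Ugt) and sulfotransferases (Sult) were examined in 3 single-cell RNA libraries of mouse small intestinal organoids. The 4 families were taken by gene symbol from the 32285 features of the count tables. The symbol pattern matched 143 genes, none of them a pseudogene, and 83 of these had at least 10 unique molecular identifiers (UMIs, 1 per captured RNA molecule) in at least 1 library. These 83 genes were 20 Gst, 43 Cyp, 12 Ugt and 8 Sult genes. Of the other 60, 30 had 0 UMIs in all 3 libraries and 30 had between 1 and 9 at most, among them Cyp4x1os, an antisense transcript.

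The libraries were WT, LApc and LApcL, with 1 sample each, so no difference between them has a replicate check and no p-value is given. WT organoids came from mice labelled WT, LApc from Lgr5-CreERT2;Apc fl/fl mice, and LApcL from mice that carried Lef1 fl/fl beside these alleles. Apc restrains Wnt signalling in the intestinal epithelium, and Lef1 is a DNA-binding partner of β-catenin. All were C57BL/6 mice with a given age of 7 to 8 weeks, and all, WT included, had received tamoxifen, 2 doses of 2 mg. The methods give 7 to 8 weeks as the age at tamoxifen for LApc and LApcL mice. The time given after tamoxifen is 29 days for LApc and 21 days for the other libraries, and all organoids were taken at passage 3 on day 6 of culture. The Cre is driven from Lgr5, a gene of crypt stem cells, and is switched on by tamoxifen. How many mice stood behind each culture, and the medium of the WT organoids, are not given in the sources used here. The methods state that LApc and LApcL organoids were grown without growth factors for 2 passages. Any part of the medium in the differences from WT thus cannot be told apart from that of the genotype.

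The 4 families handle drugs, food toxins and endogenous lipids in sequence. Cytochrome P450 enzymes oxidise a substrate, mostly in the endoplasmic reticulum, and the other 3 families then attach a water-soluble group: glutathione by Gst, glucuronic acid by Ugt and sulfate by Sult enzymes. The liver is the main organ for this chemistry, and in the gut it is best known from the absorptive enterocytes of the villus, where Cyp3a enzymes and Ugt enzymes act on swallowed compounds before they reach the blood. The nuclear receptors Pxr (Nr1i2) and Car (Nr1i3), the aryl hydrocarbon receptor Ahr and the stress factor Nrf2 (Nfe2l2) switch many of these genes on when a foreign compound is present.

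The 3 libraries held 11411 (WT), 10706 (LApc) and 12068 (LApcL) barcodes, and 3195 barcodes occurred in all of them. Barcodes of more than 1 library are called shared, and 3225, 3183 and 3230 of them had at most 20% mitochondrial UMIs. These carried an endothelial transcript, Pecam1, at 968 to 1057 CPM (counts scaled to a library sum of 1000000) and a median of 1499 to 2164 UMIs. All shared barcodes were left out. Levels below come from barcodes found in 1 library only, with at least 10000 UMIs, of which at most 20% were mitochondrial. They were 1208 barcodes of WT, 2161 of LApc and 1931 of LApcL, with 48895147, 90864428 and 80504226 UMIs. The WT barcodes had the higher mitochondrial share, with a median of 10.5% against 5.64% and 6.39%, and 427 further deep WT barcodes lay above the limit against 295 and 259. The part of this in the differences from WT was not tested beyond the other limits tried, which are given after the results. Their UMIs were summed per library and given as CPM, so that 1 UMI was worth 0.0205, 0.0110 and 0.0124 CPM. All intervals are exact 95% intervals and cover counting error only. For WT, LApc and LApcL, Apc read 20.0, 88.5 and 95.4 CPM and Lef1 0.961, 72.0 and 47.8 CPM. Counts of 3′ ends do not measure the deleted parts of either gene, so neither level checks a genotype. Of the 12 enterocyte markers looked up, all were at least 2-fold lower in LApc and in LApcL than in WT, their summed level was 23213, 14.5 and 16.3 CPM, and Apoa4 had no UMI in LApcL. Markers of other cells were low: 6 fibroblast markers summed to 1.76, 0.297 and 0.435 CPM, 6 immune markers to 0.593, 0.627 and 0.410 CPM, and 6 hepatocyte markers to 30.7, 7.56 and 2.37 CPM, with Ttr at 25.4 CPM in WT and Alb at 0.511.

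Membership used the UMI counts themselves. A gene that passed through 1 library alone had to differ between libraries, and this was so for 19 genes in WT, 3 in LApc and 0 in LApcL, whereas 50 genes passed in every library. Of the 83, 77 had at least 10 UMIs in the WT library, 62 in the LApc and 55 in the LApcL library, and 3, 9 and 13 had none. Just inside the minimum, Cyp4a10 had 10, 0 and 0 UMIs (WT, LApc and LApcL in this order throughout), Cyp2c69 12, 0 and 0, and Cyp2f2 0, 14 and 5. Just outside it, Cyp2c40 had 8, 6 and 7 UMIs and Ugt1a6b 5, 0 and 0. Because the members were chosen on these counts, the counts of members below are a description and are read only against the same share over all 17272 features that passed the same minimum.

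RefSeq lists a transcription start for 73 of the 83 genes, with 87 promoters in all (GRCm38.p6, the 250 bases before each start). For 6 short words bound by known regulators both strands were searched, and the promoters of 4 genes that the results turn on are printed here for their order of letters before the values. Gsta1 had the highest level of all members in WT, Cyp2c29 had no UMI outside WT, Cyp2c65 carried the HNF4 word and Gsta3 the antioxidant response element. Capitals mark a match to one of the words, and only the stretch that no annotated exon covers is shown.
Gsta1 (chr9:78230419-78230655, plus strand, no match): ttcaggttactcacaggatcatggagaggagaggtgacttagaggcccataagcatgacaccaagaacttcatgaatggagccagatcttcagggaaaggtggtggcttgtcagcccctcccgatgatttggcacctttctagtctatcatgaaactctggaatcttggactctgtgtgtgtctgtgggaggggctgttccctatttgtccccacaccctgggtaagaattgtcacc
Cyp2c29 (chr19:39286835-39287073, plus strand): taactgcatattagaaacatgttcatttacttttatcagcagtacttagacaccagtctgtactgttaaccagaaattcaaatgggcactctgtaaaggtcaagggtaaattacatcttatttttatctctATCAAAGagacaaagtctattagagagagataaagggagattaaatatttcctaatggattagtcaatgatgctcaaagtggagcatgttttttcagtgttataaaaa
Cyp2c65 (chr19:39060756-39061005, plus strand): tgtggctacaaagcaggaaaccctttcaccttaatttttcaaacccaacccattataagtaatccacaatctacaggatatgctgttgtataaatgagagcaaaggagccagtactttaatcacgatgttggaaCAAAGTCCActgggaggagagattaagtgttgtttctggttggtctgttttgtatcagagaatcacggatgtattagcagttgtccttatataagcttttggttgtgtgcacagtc
Gsta3 (chr1:21240335-21240584, plus strand): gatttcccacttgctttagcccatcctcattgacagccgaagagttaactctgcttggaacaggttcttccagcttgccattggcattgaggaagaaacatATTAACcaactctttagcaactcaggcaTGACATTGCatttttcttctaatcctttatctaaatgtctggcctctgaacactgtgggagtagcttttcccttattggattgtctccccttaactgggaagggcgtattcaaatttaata

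CAAAGTCCA, a word bound by HNF4 factors, which are regulators of enterocyte and hepatocyte genes, was in 6 of the 87 promoters (6.90%) and in 0.384% of all 32841 promoters in the table. Among promoters of members at least 2-fold below WT in LApc as well as LApcL, 3 of 47 held the word (6.38%). Among those of the other members, 3 of 40 held it (7.5%), so its share was not larger before the lower members. All 6 lay before Cyp2c or Cyp3a genes, between 64 and 125 bases from the start. They are shown with 10 bases on each side, on the strand of the gene, because the same 9 letters recur in neighbouring genes of the Cyp2c cluster on chromosome 19.
Cyp2c65 (chr19:39060880-39060908, plus strand): gatgttggaaCAAAGTCCActgggaggag
Cyp2c67 (chr19:39649149-39649177, minus strand): atcattgagaCAAAGTCCAtttggaagca
Cyp2c68 (chr19:39741160-39741188, minus strand): atcattgaaaCAAAGTCCAattggaagag
Cyp2c69 (chr19:39886826-39886854, minus strand): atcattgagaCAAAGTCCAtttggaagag
Cyp2c70 (chr19:40187332-40187360, minus strand): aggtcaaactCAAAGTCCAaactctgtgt
Cyp3a11 (chr5:145879945-145879973, minus strand): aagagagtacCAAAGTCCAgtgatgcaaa

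TGACNNNGC, the antioxidant response element that Nrf2 binds, was in 4 of the 87 promoters (4.60%) against 10.2% of all promoters. Of the 4 genes, 3 are Gst genes, Gsta3, Gstm5 and Gstm7, whose levels are given below.
Gsta3 (chr1:21240454-21240482, plus strand): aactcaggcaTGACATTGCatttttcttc
Gstm5 (chr3:107895802-107895830, plus strand): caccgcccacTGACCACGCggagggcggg
Gstm7 (chr3:107931725-107931753, minus strand): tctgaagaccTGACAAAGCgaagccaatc
Cyp4f14 (chr17:32917196-32917224, minus strand): gaaggccagcTGACCAAGCaagaatgcca

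In Gstm7 the word was in 1 of its 2 RefSeq promoters and in Cyp4f14 in 1 of 4. GTTAAT, bound by HNF1 factors, was in 13 of the 87 promoters (14.9%) against 6.43% of all, and the xenobiotic response element GCGTG in 20 (23.0%) against 28.2%. TTTATG, bound by CDX factors, was in 6 (6.90%) against 10.8%. CTTTGAT, bound by TCF and LEF factors, was in 1 (1.15%) against 3.21%, before Cyp2c29, where it lay on the opposite strand 119 bases from the start. A match is a run of letters and not a shown binding site, and neighbouring genes of a family share sequence, so the promoters are not independent of each other.

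Together the 83 genes took 7749, 1218 and 997 CPM, that is 0.775%, 0.122% and 0.0997% of all UMIs. All 4 families were lower in both Apc-targeted libraries than in WT. Cyp genes summed to 2817, 86.7 and 78.6 CPM, Gst genes to 4361, 1005 and 802 CPM, Ugt genes to 340.1, 107 and 97.7 CPM, and Sult genes to 231, 19.2 and 19.2 CPM. The Cyp sum was 32.5-fold lower in LApc than in WT (31.8 to 33.3) and 35.9-fold lower in LApcL (35.0 to 36.8), the widest gap of the families. The Sult sum was 12.1-fold (11.5 to 12.7) and 12.02-fold lower (11.4 to 12.7), the Gst sum 4.34-fold (4.31 to 4.37) and 5.44-fold lower (5.39 to 5.49), and the Ugt sum 3.17-fold (3.09 to 3.25) and 3.48-fold lower (3.39 to 3.58). Both comparisons use the same WT library. In sums over a library, fewer cells of a type and less RNA per cell cannot be told apart. With the enterocyte-like barcodes described below left out of WT, the differences of all 4 sums were smaller. The log2 difference of the Cyp sum was then -3.43 in LApc and -3.57 in LApcL, instead of -5.01 and -5.15.

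**Figure D1:**
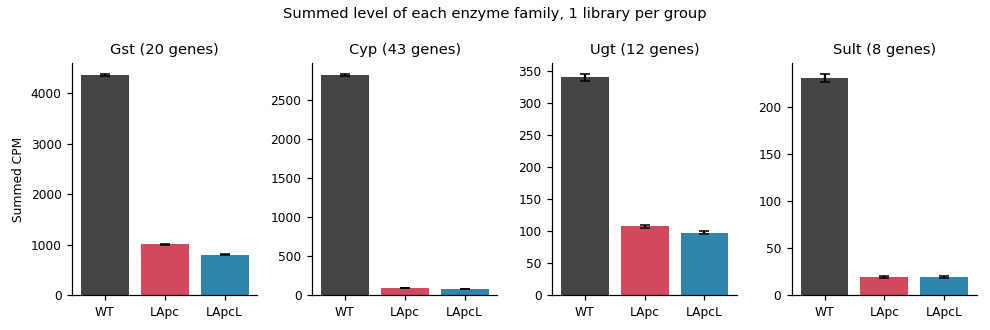
Summed CPM of the members of each enzyme family (y axis) in the WT, LApc and LApcL libraries (x axis), 1 panel per family with its own y axis and with 95% Poisson intervals as error bars. WT stands highest in all 4 panels, with 2817 CPM for Cyp against 86.7 in LApc and 78.6 in LApcL.

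Between LApc and WT, 44 of the 83 genes (53.0%) were at least 2-fold lower and 6 (7.23%) at least 2-fold higher on the scale of log2(CPM + 1). Over all features 8.05% were at least 2-fold lower and 19.4% at least 2-fold higher. The median log2 difference was -1.19 over the members and 0.30 over all features. Between LApcL and WT, 44 members were at least 2-fold lower and 3 at least 2-fold higher, against 8.79% and 19.9% of all features, with medians of -1.20 and 0.24. With size factors from medians of ratios the median over all features fell to 0.06 and 0.04. Relative to the bulk of genes, members lower than WT were thus further down, and members higher than WT less far up, than their CPM values give.

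**Figure D2:**
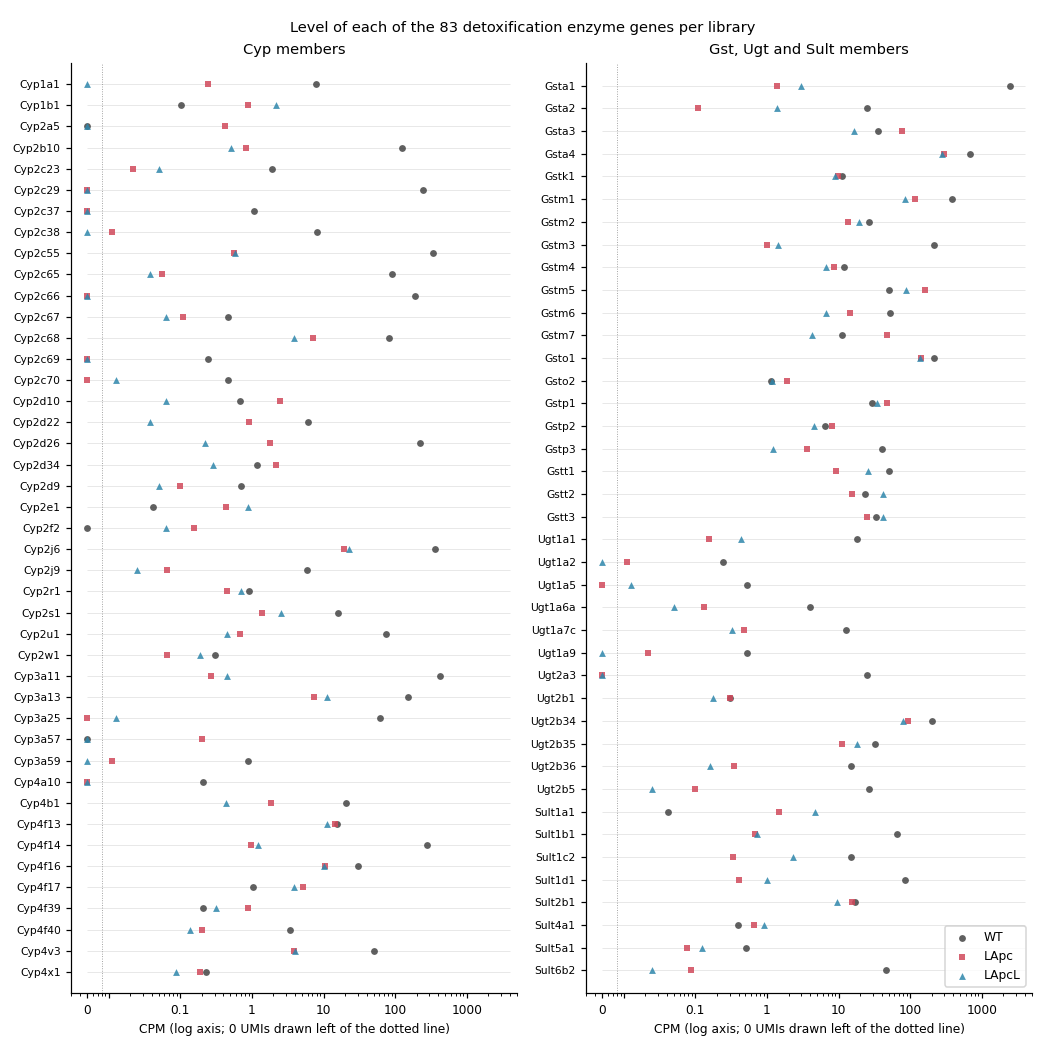
CPM of each of the 83 genes (x axis, log scale, genes on the y axis) in WT, LApc and LApcL, with Cyp genes in the left panel and Gst, Ugt and Sult genes in the right panel, and genes without a UMI drawn left of the dotted line. The WT points of genes such as Gsta1 (2446 CPM) and Cyp3a11 (425 CPM) lie far to the right of the other points, whereas Gsta4, Gsto1 and Ugt2b34 lie close together.

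Among the Cyp genes, 24 of 43 were at least 2-fold lower in LApc than in WT and 24 in LApcL, against 8.05% and 8.79% of all features. The subfamilies differed in how far apart the libraries were. The 11 Cyp2c genes, which oxidise drugs and polyunsaturated fatty acids, summed to 956, 7.99 and 4.67 CPM, and the 5 Cyp3a genes, the main intestinal drug-oxidising enzymes, to 637, 7.78 and 11.5 CPM. The 5 Cyp2d genes summed to 228, 7.43 and 0.658 CPM, and the 6 Cyp4f genes, which hydroxylate fatty acids and leukotrienes, to 332, 32.5 and 26.8 CPM. The 2 Cyp2j genes, which epoxidise arachidonic acid, summed to 367, 19.5 and 22.8 CPM.

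Cyp3a11 (ENSMUSG00000056035, chr5:145854426-145879964, GRCm38) is the mouse gene most often compared with human CYP3A4. It had 20780, 24 and 36 UMIs, or 425, 0.264 and 0.447 CPM. Its level was high in WT and close to absent in the others, 1609-fold lower in LApc (1081 to 2512) and 950.4-fold lower in LApcL (686 to 1357). After thinning every barcode to 10000 UMIs, 48.6% of WT barcodes had a Cyp3a11 UMI against 0.324% in LApc and 0.363% in LApcL.

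Cyp2c29 (ENSMUSG00000003053, chr19:39269405-39330713) had 12081, 0 and 0 UMIs, and Cyp2c66 9234, 0 and 0. Set against a floor of 3 UMIs, Cyp2c29 was at least 7484-fold lower in LApc and at least 6630-fold lower in LApcL, and Cyp2c66 at least 5720-fold and 5068-fold lower. Cyp2c55, the highest Cyp2c gene in WT, read 335, 0.561 and 0.584 CPM, 597-fold lower in LApc (454 to 803) and 574-fold lower in LApcL (432 to 782). Cyp2c65 had 4382, 5 and 3 UMIs. All 4 genes lie on chromosome 19, and all 4 were near 0 in both Apc-targeted libraries. Cyp2c68, of the same cluster, was not: it read 83.1, 7.23 and 3.93 CPM, 11.5-fold lower in LApc (10.6 to 12.5) and 21.2-fold lower in LApcL (18.9 to 23.8), and made up 90.5% and 84.0% of their Cyp2c UMIs. It shares 44.3% of its 3′ words with other genes, so its count is uncertain.

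Cyp2b10, the classical target gene of Car, read 126, 0.825 and 0.509 CPM, and Cyp4f14 282, 0.980 and 1.20 CPM. Cyp2b10 was 152-fold lower in LApc (121 to 194) and 247-fold lower in LApcL (182 to 344), and Cyp4f14 288-fold (234 to 359) and 234-fold lower (192 to 289). Cyp1a1, the classical target gene of Ahr, had 380, 22 and 0 UMIs. It was 32.1-fold lower in LApc (20.9 to 51.8) and at least 209-fold lower in LApcL, and 11 of its 22 LApc UMIs were in 1 barcode.

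Not all Cyp genes were that low. Cyp2j6 read 361, 19.4 and 22.8 CPM and was 18.6-fold lower in LApc (17.7 to 19.6) and 15.9-fold lower in LApcL (15.1 to 16.6), yet it was the highest Cyp gene of LApc and LApcL, with 22.4% and 29.0% of the Cyp UMIs. Cyp3a13 read 150.2, 7.31 and 11.1 CPM, 20.6-fold lower in LApc (19.0 to 22.3) and 13.6-fold lower in LApcL (12.7 to 14.6). Cyp4f13 read 15.6, 14.6 and 11.2 CPM, and 17 of the 43 Cyp genes stayed within 2-fold of WT in LApc and 17, not all of them the same, in LApcL on the log2(CPM + 1) scale. The share of all features that did so was larger. Of all features only 8.05% and 8.79% were at least 2-fold lower and 19.4% and 19.9% at least 2-fold higher. The log2(CPM + 1) scale holds genes of few UMIs close to 0, and some of these Cyp genes were further apart in plain CPM: Cyp2e1 had 2, 40 and 72 UMIs, and Cyp2d9 34, 9 and 4. Cyp4f17 stood the other way at 1.02, 5.17 and 3.88 CPM, 5.06-fold higher in LApc (3.77 to 6.91) and 3.79-fold higher in LApcL (2.81 to 5.22). Cyp1b1, which acts on steroids and polycyclic hydrocarbons, had 5, 80 and 177 UMIs, 8.61-fold (3.54 to 27.2) and 21.5-fold higher (9.04 to 67.0). It is a gene of vascular and stromal cells, and the shared endothelial barcodes held it at 155 to 173 CPM. Of 8 endothelial markers 6 had at least 10 UMIs in a library, and all 8 summed to 5.62, 40.9 and 17.1 CPM in the barcodes used, and their part in the Cyp1b1 values was not tested.

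Among the Gst genes, 8 of 20 were at least 2-fold lower in LApc than in WT and 3 at least 2-fold higher, and in LApcL 9 were lower and none higher. Over all features 8.05% and 8.79% were lower, and the 3 higher genes and the 0 of LApcL are smaller shares of the family than the 19.4% and 19.9% of all features. Gsta1 (ENSMUSG00000074183, chr9:78230656-78242684) conjugates glutathione to electrophiles and lipid peroxidation products. It had 119611, 126 and 241 UMIs, or 2446, 1.39 and 2.99 CPM, and made up 56.1% of all Gst UMIs in WT. Its level was 1764-fold lower in LApc (1482 to 2118) and 817-fold lower in LApcL (720.2 to 931). After thinning to 10000 UMIs, 92.1% of WT barcodes had a Gsta1 UMI (90.4 to 93.5), against 0.648% in LApc (0.355 to 1.09) and 0.829% in LApcL (0.474 to 1.34). The unthinned shares were 95.2%, 2.78% and 3.11%. At 500 UMIs per barcode 52.3% of the WT barcodes had one against 0.279% of the shared WT barcodes, which carry the endothelial transcript. The 3′ end of Gsta1 shares 83.9% of its 60-base words with Gm3776, so the Gsta1 count is uncertain by what the pair may have traded.

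Gsta4, which detoxifies 4-hydroxynonenal, an end product of lipid peroxidation, was far less unequal at 687, 300.2 and 275 CPM. It was 2.29-fold lower in LApc (2.25 to 2.33) and 2.50-fold lower in LApcL (2.46 to 2.54), and it led the Gst family in both, with 29.9% and 34.3% of its UMIs. Of the thinned barcodes, 92.0%, 79.2% and 83.4% held a Gsta4 UMI. Gsto1, an omega-class enzyme with a thioltransferase activity, read 215, 144 and 135 CPM and was within 2-fold in both comparisons with WT. With median-of-ratios size factors it was just past 2-fold in LApcL, at a log2 difference of -1.05.

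The mu-class genes, which lie side by side on chromosome 3, did not move as 1 group. Gstm1 read 389, 115 and 83.6 CPM and was 3.38-fold lower in LApc (3.30 to 3.46) and 4.65-fold lower in LApcL (4.52 to 4.78). Gstm3 read 214, 1.001 and 1.42 CPM, 214-fold lower in LApc (174 to 266) and 151-fold lower in LApcL (126 to 183). Gstm5 (chr3:107895821-107898686), at 50.2, 163 and 88.7 CPM, was 3.25-fold higher in LApc (3.12 to 3.40) and 1.77-fold higher in LApcL (1.69 to 1.85). Gstm7 (chr3:107926334-107931817), at 11.1, 47.6 and 4.30 CPM, was 4.27-fold higher in LApc (3.91 to 4.68) and 2.59-fold lower in LApcL (2.26 to 2.97). Of these 4 genes, Gstm3 was nearly absent from LApc and LApcL, Gstm1 was several-fold lower in both, Gstm5 was higher in both, and Gstm7 was high in LApc alone.

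Gsta3 (chr1:21240589-21265661), an alpha-class enzyme that also isomerises steroid intermediates, likewise stood highest in LApc, at 36.1, 76.6 and 16.2 CPM. It was 2.13-fold higher in LApc than in WT (2.02 to 2.24) and 2.23-fold lower in LApcL (2.07 to 2.40). With median-of-ratios size factors its log2 difference between LApc and WT was 0.66 instead of 1.07, below 2-fold. The 3 theta-class genes summed to 109, 49.5 and 109 CPM and the 3 pi-class genes to 76.2, 58.9 and 40.2 CPM. Gstp1 and Gstp2 share 75.9% and 61.5% of their 3′ words with other genes, so their separate levels are uncertain.

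Among the Ugt genes, 8 of 12 were at least 2-fold lower in LApc and 7 in LApcL, against 8.05% and 8.79% of all features. None was 2-fold higher in either, against 19.4% and 19.9%. Ugt2b34, which conjugates steroids and drugs, read 205, 94.5 and 78.4 CPM. It was 2.17-fold lower in LApc (2.11 to 2.23) and 2.61-fold lower in LApcL (2.53 to 2.70), and it held 60.3%, 88.0% and 80.3% of the Ugt UMIs. Ugt2b35 read 31.9, 11.3 and 18.1 CPM. The 6 Ugt1a genes, which include the bilirubin-conjugating Ugt1a1, summed to 36.0, 0.792 and 0.820 CPM. Of these 6 genes, 5 share 100% of their 3′ words with other genes and Ugt1a7c 50%, so the split of UMIs among them is uncertain.

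Among the 8 Sult genes, 4 were at least 2-fold lower in each Apc-targeted library, against 8.05% and 8.79% of all features, and 1 at least 2-fold higher, a smaller share than the 19.4% and 19.9% of all features. Sult1b1, which sulfates thyroid hormones and small phenols, read 66.0, 0.682 and 0.733 CPM, 96.7-fold lower in LApc (75.2 to 126) and 90.03-fold lower in LApcL (69.6 to 119). Sult1d1, which sulfates catecholamines, read 85.3, 0.407 and 0.994 CPM, 209.5-fold (152 to 298) and 85.9-fold lower (68.8 to 109), with 30.0% of its LApcL UMIs in 1 barcode. Sult2b1, a cholesterol and pregnenolone sulfotransferase, stayed within 2-fold of WT at 17.2, 15.4 and 9.45 CPM and led the family in LApc, with 80.5% of its UMIs. With median-of-ratios size factors it passed 2-fold in LApcL against WT, at a log2 difference of -1.16.

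Sult1a1, a sulfotransferase for phenols, was the Sult gene that stood higher outside WT. It had 2, 135 and 376 UMIs, or 0.0409, 1.49 and 4.67 CPM. This was 36.3-fold higher in LApc (9.86 to 303) and 114-fold higher in LApcL (31.4 to 946), from a base of 2 UMIs. The shared endothelial barcodes held it at 154 to 168 CPM, and 6.25% to 6.57% of them had a UMI after thinning to 500, against 0%, 0.0926% and 0.259% of the barcodes used. The shares in the barcodes used thus lay below those of the endothelial barcodes, and the part of endothelial RNA in the Sult1a1 values was not tested.

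LApcL and LApc differ in the floxed Lef1 allele and in the time after tamoxifen. The family sums were close between them, while single members differed by more. In LApcL 7 of the 83 genes (8.43%) were at least 2-fold lower than in LApc and 5 (6.02%) at least 2-fold higher, against 3.76% and 1.27% of all features. These counts of members depend on the pseudocount of 1 CPM: they were 13 and 9 with 0.1, and 2 and 1 with 10. The median log2 difference was -0.06 over the members and -0.0009 over all features, and 71 members lay within 2-fold on the log2(CPM + 1) scale. Among these 71 are genes of low level that were further apart in plain CPM, such as Cyp2d22, with 83 UMIs in LApc and 3 in LApcL (24.5-fold lower, 8.10 to 121), and Cyp2a5, with 38 and 0. Of the 38 Cyp2a5 UMIs, 20 (52.6%) were in 1 barcode. The Gst sum was 1.25-fold lower in LApcL (1.24 to 1.27), the Cyp sum 1.10-fold lower (1.07 to 1.14) and the Ugt sum 1.10-fold lower (1.07 to 1.13). The interval of the Sult ratio, 0.936 to 1.08, spans equal levels.

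The 7 lower genes were Gsta3, Gstm7, Gstp3, Cyp2d10, Cyp2d26, Cyp2d34 and Cyp4b1. Gstm7 was 11.1-fold lower in LApcL than in LApc (9.92 to 12.4), with 4321 UMIs in LApc and 346 in LApcL, and Gsta3 4.74-fold lower (4.46 to 5.03), with 6964 and 1303. Gstm5 was 1.84-fold lower (1.79 to 1.89) and so did not reach 2-fold. The 3 Cyp2d genes lie together on chromosome 15: Cyp2d26 had 10725, 163 and 18 UMIs, Cyp2d10 33, 224 and 5, and Cyp2d34 58, 196 and 23. In LApcL they were 8.02-fold (4.92 to 13.9), 39.7-fold (16.8 to 123) and 7.55-fold lower (4.89 to 12.2) than in LApc. Cyp2d10, Cyp2d26 and Cyp2d34 share 34.1%, 26.4% and 21.1% of their 3′ words with other genes, so their counts are uncertain.

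The 5 higher genes were Gsta2, Gstt1, Gstt2, Sult1a1 and Sult1c2. The theta-class enzymes Gstt1 and Gstt2, which act on small halogenated compounds and on sulfate esters, read 51.3, 9.29 and 26.0 CPM and 23.6, 15.4 and 41.4 CPM. In LApcL they were 2.80-fold (2.58 to 3.03) and 2.68-fold higher (2.52 to 2.86) than in LApc, so that Gstt2 also exceeded WT while Gstt1 did not. Sult1c2, at 14.95, 0.330 and 2.30 CPM, was 6.96-fold higher in LApcL (4.71 to 10.6), and Sult1a1 3.14-fold higher (2.58 to 3.86). Gsta2 was 12.6-fold higher (6.63 to 27.1), with 10 UMIs in LApc and 112 in LApcL, but 26.8% of the latter were in 1 barcode, and Gsta2 shares 45.3% of its 3′ words with other genes, so its count is uncertain. Gsta1 was similar, 2.16-fold higher (1.73 to 2.70), with 38.6% of its 241 LApcL UMIs in 1 barcode.

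**Figure D3:**
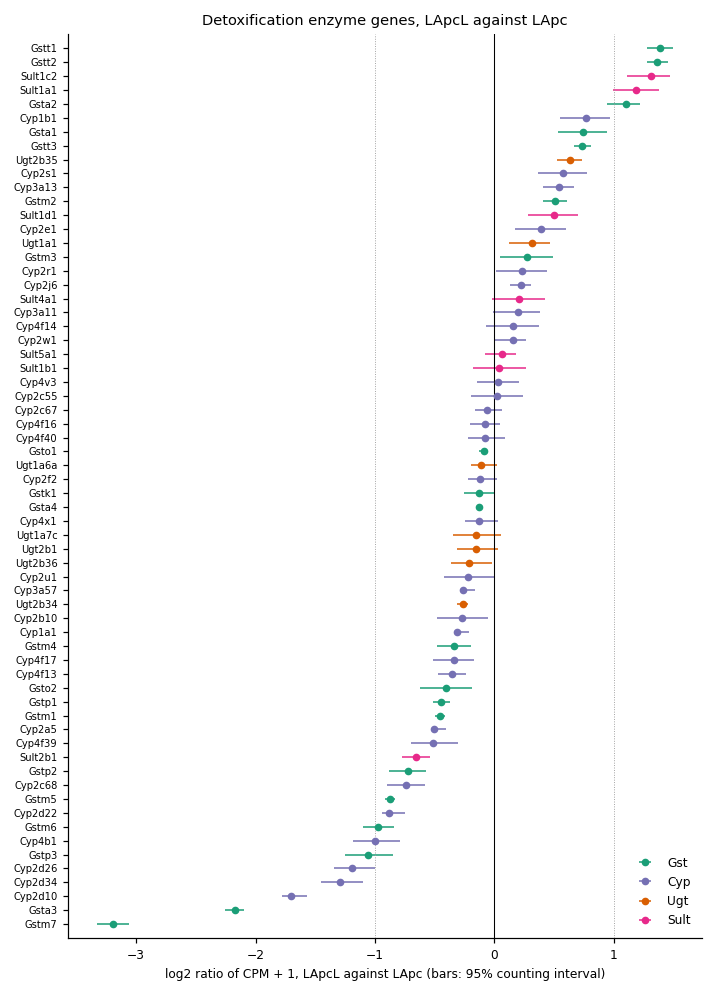
Difference between LApcL and LApc as log2 ratio of CPM + 1 (x axis) for the 64 members with at least 10 UMIs in 1 of these libraries (y axis), coloured by family, with 95% counting intervals and dotted lines at 2-fold. Most points lie between the dotted lines, with Gstm7 at the low end (-3.20) and Gstt1 at the high end (1.39).

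To see where in the cultures the members were read, the 3 libraries were clustered together without the member genes among the features. Of the 1208 WT barcodes, 737 fell into 2 enterocyte-like clusters (clusters 4 and 7, with 555 and 182 barcodes), 381 into a cluster led by Olfm4 (cluster 5), 31 into cluster 8, 37 into an enteroendocrine-like and 21 into an unnamed histone-led cluster. Cluster 8 was Paneth-like by its leading genes over the 3 libraries, but its WT barcodes held the goblet cell mucin Muc2 at 3236 CPM and Lyz1 at 727, so they are called by number. No LApc or LApcL barcode fell into clusters 4, 5 or 7, and a cluster of 1 library may stand for that library rather than for a cell type.

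The members summed to 18170 CPM in WT cluster 7, where the fatty acid-binding enterocyte gene Fabp1 stood at 22374 CPM, to 7266 in cluster 4, to 4215 in cluster 5 and to 2124 to 3605 in the other WT clusters. In LApc they summed to 498 to 1585 CPM and in LApcL to 648 to 1129 CPM, so that, among clusters with at least 20 barcodes of a library, each of those of the Apc-targeted libraries lay below each of those of WT. The enterocyte-like WT barcodes held 80.7% of the WT member UMIs and 63.0% of all WT UMIs. Against the other 471 WT barcodes, 27 of the 77 members measured in WT were at least 2-fold higher in them, against 5.55% of all 14716 features, and 0 were at least 2-fold lower, against 12.7%. The median log2 difference was 0.56 over the members and -0.20 over all features. Enterocyte markers thus moved with the members. Other markers moved as well: 8 enteroendocrine markers summed to 1354, 43.1 and 25.7 CPM (7 of 8 at least 2-fold lower in LApc and 8 in LApcL), 8 goblet markers to 1461, 327 and 663 CPM (8 and 4 lower), and 8 Paneth markers to 242, 1771 and 4315 CPM (7 higher in each). The 8 Wnt-high markers summed to 4.40, 3301 and 1011 CPM (8 higher in each), 8 proliferation markers to 765, 2244 and 2843 CPM (5 and 7 higher, none lower), and 8 stem cell markers to 429.7, 1056 and 1515 CPM (4 and 5 higher, 1 lower in each). The enteroendocrine marker Gip had no UMI in LApc or LApcL. The part of these cell types in the differences from WT was not tested.

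**Figure D4:**
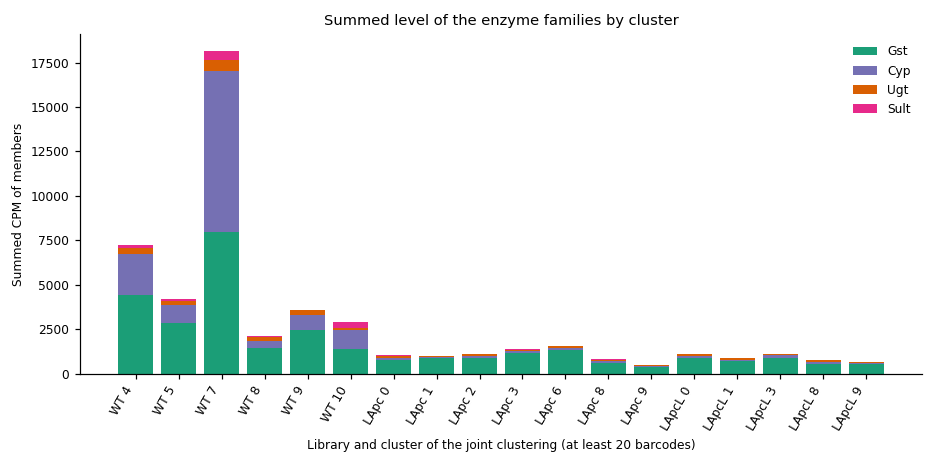
Summed CPM of the members (y axis), stacked by family, in each cluster of the joint clustering with at least 20 barcodes of a library (x axis, library and cluster number). WT cluster 7 reaches 18170 CPM and the lowest WT cluster 2124, while the highest cluster of LApc reaches 1585 and that of LApcL 1129.

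Several drug-oxidising Cyp genes were read mainly in cluster 7. Cyp2c29 read 1520 CPM in WT cluster 7, 25.1 in cluster 4 and 3.58 in cluster 5, Cyp3a11 1943, 248 and 20.5 CPM, and Cyp2b10 611, 60.1 and 8.37 CPM. Gsta1 was spread more widely, at 5396, 2643 and 1029 CPM. Gsta4 read 747, 789 and 553 CPM in clusters 7, 4 and 5 and was highest in cluster 4. Gstm3 was read at like levels in clusters 7 and 5, with 282 and 281 CPM, and at 163 CPM in cluster 4. Of the 77 members, 45 were highest in cluster 7, but the share of all features highest there was not counted. For members of few UMIs, such as Cyp2c69 with 12 in WT, the highest cluster is uncertain. In the enteroendocrine-like cluster 10 Gstt1 reached 543 CPM, Cyp4b1 310 and Sult1d1 295.

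With the enterocyte-like barcodes left out of WT, 39 members were at least 2-fold lower in LApc (6.57% of all features) and 6 higher (14.5%), and 40 were lower in LApcL (6.83%) and 2 higher (12.8%). The medians were -0.79 and -0.85. The WT barcodes left still carried the enterocyte gene Fabp1, at 1962 CPM in cluster 5 and 869 in cluster 9. Every LApc and LApcL cluster held it at 0.557 CPM or less. Gsta1 read 70.3 CPM in the shared endothelial barcodes of WT and had 0 UMIs in those of LApc and LApcL. The part of enterocyte RNA in the remaining folds was not tested. Gsta1 read 969 CPM in these WT barcodes and was 699-fold lower in LApc (586 to 839), and Gstm3 read 251 CPM (251-fold lower in LApc, 204 to 312). The Cyp genes differed in how far their folds shrank. Cyp3a11 was 81.1-fold lower in LApc than in these barcodes (53.7 to 128) instead of 1609-fold, Cyp2b10 9.90-fold (7.45 to 13.3) instead of 152-fold, and Cyp3a13 4.43-fold (3.96 to 4.96) instead of 20.6-fold. Cyp2c29 was at least 98.6-fold instead of at least 7484-fold lower, whereas Cyp2c55 was 361-fold (274 to 486) instead of 597-fold lower and Cyp1a1 39.9-fold (25.5 to 65.3) instead of 32.1-fold. Gsta4 fell below 2-fold, at 1.77-fold lower in LApc (1.73 to 1.81) and 1.93-fold in LApcL (1.89 to 1.98), and so did Ugt2b34, at 1.51-fold (1.44 to 1.57) and 1.81-fold (1.73 to 1.90). Gsta3 in LApc was 1.79-fold higher (1.66 to 1.92) and Gstm7 in LApcL 1.91-fold lower (1.57 to 2.33), so these fell below 2-fold too. The log2 difference of Cyp4f17 in LApcL was 0.97, just below 2-fold.

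Within the Apc-targeted libraries Gstm7 and Gsta3, both at least 2-fold lower in LApcL than in LApc, also differed between clusters. So did Gstm5, Gstm1 and Gsta4, which were less than 2-fold apart between these libraries. Gstp3, Gsta2 and Gstt1 are not given by cluster here. Gstm7 reached 165 CPM in LApc cluster 6, a cluster with Npy among its leading genes, with 379 barcodes of LApc and none of LApcL, and 55.6 CPM in LApc cluster 2, but 3.70 to 12.3 CPM in the other LApc clusters and 2.77 to 5.88 CPM in LApcL. Gstm5 and Gstm1 were highest in LApc cluster 6 too, at 460 and 225 CPM (LApcL 74.1 to 104 CPM for Gstm5 and 48.1 to 113 for Gstm1). Gsta3 had the opposite pattern, with 5.77 CPM in cluster 6 and 140 CPM in cluster 3, and Gsta4 was likewise highest in cluster 3, at 474 CPM in LApc and 388 in LApcL. Of the 224 Cyp2d10 UMIs of LApc, 193 came from cluster 6, and without that cluster the log2 difference of Cyp2d10 from WT turned from 1.05 to -0.26. Without it that of Gstm7 from WT was 1.19 instead of 2.00. Gstt2 showed no such concentration: it read 8.76 to 30.9 CPM across the LApc clusters and 29.2 to 49.4 CPM across those of LApcL.

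**Figure D5:**
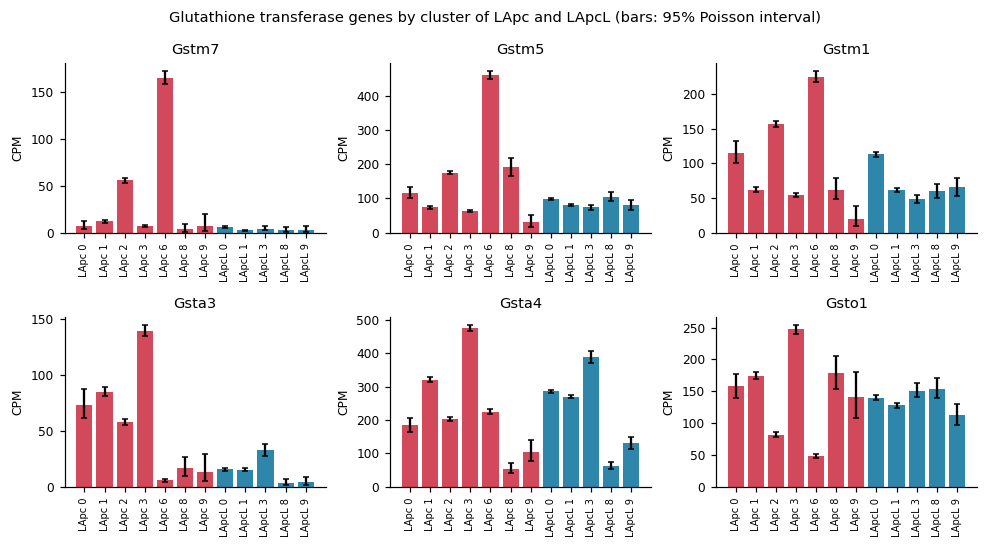
CPM (y axis) of Gstm7, Gstm5, Gstm1, Gsta3, Gsta4 and Gsto1 in the clusters of LApc and LApcL (x axis), 1 panel per gene with its own y axis and 95% Poisson intervals. Gstm7, Gstm5 and Gstm1 peak in LApc cluster 6, at 165, 460 and 225 CPM, and Gsta3, Gsta4 and Gsto1 in LApc cluster 3, at 140, 474 and 247 CPM.

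Genes that work beside the 4 families were counted from lists, and each count is read against the 8.05% (LApc) and 8.79% (LApcL) of all features that were at least 2-fold lower than in WT and the 19.4% and 19.9% that were higher. Of 31 further oxidising and hydrolysing genes with enough UMIs, 21 were at least 2-fold lower in LApc than in WT and 2 higher, and 21 and 2 in LApcL. The share on the lower side lay above that of all features and the share on the higher side below it. The carboxylesterase Ces2a read 491, 0.209 and 0.571 CPM, Ces2c 237, 0.198 and 0.0373 CPM and Ces2e 312, 3.58 and 1.70 CPM. The alcohol dehydrogenase Adh1 read 171, 2.09 and 5.55 CPM, and the amine oxidases Maoa and Maob 275, 22.0 and 31.5 CPM and 64.6, 0.781 and 0.696 CPM. Carbonyl reductase Cbr1 was less unequal, at 332, 67.8 and 72.4 CPM (4.89-fold lower in LApc, 4.75 to 5.04), as was Cyb5a, an electron donor to P450 enzymes, at 916, 255 and 216 CPM.

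Of 10 other conjugating enzymes, 3 were lower and 0 higher in each comparison with WT, against 8.05% and 8.79% of all features lower and 19.4% and 19.9% higher. These 3 were the membrane-bound glutathione transferases Mgst1 (391, 92.0 and 91.1 CPM), Mgst2 (199.8, 38.9 and 62.0 CPM) and Mgst3 (610, 119 and 135 CPM). Of the 14 genes that supply cofactors, 2 were lower and 2 higher in LApc than in WT, and 2 and 2 in LApcL, against the same shares of all features. They summed to 1716, 1401 and 1492 CPM. Among them, glutathione reductase Gsr read 145, 120 and 107 CPM.

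Of the 10 Nrf2 target genes, 3 were lower and 2 higher in LApc than in WT, and 4 and 1 in LApcL, against 8.05% and 8.79% of all features on the lower side. The shares on the higher side were near or below those of all features (19.4% and 19.9%). The glutathione peroxidase Gpx2 read 212, 1064 and 956 CPM, 5.02-fold higher in LApc, and the peroxiredoxin Prdx1 787, 1376 and 1287 CPM, whereas Nqo1 read 46.1, 6.06 and 1.80 CPM. The ferritin heavy chain Fth1, at 7106, 4381 and 1198 CPM, was 3.66-fold lower in LApcL than in LApc, and Nfe2l2 itself read 244, 206 and 198 CPM.

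Among the 22 regulators, 11 were at least 2-fold lower in LApc and 1 higher, and 10 and 1 in LApcL, against 8.05% and 8.79% of all features lower and 19.4% and 19.9% higher. The share on the higher side thus lay below that of all features. Car (Nr1i3) read 23.0, 0.231 and 0.0745 CPM, Pxr (Nr1i2) 20.5, 5.93 and 7.69, and the vitamin D receptor Vdr 89.2, 5.81 and 5.42. Ahr was the 1 gene on the higher side, at 19.0, 42.6 and 56.4 CPM, 2.25-fold higher in LApc and 2.97-fold higher in LApcL, while its target Cyp1a1 was lower in both (above). Hnf4g read 102, 9.80 and 15.9 CPM, whereas Hnf4a, the other HNF4 gene, read 95.2, 52.2 and 71.6 CPM and Cdx2 96.3, 75.6 and 162 CPM.

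Of the 10 efflux transporters, 6 were lower, against 8.05% and 8.79% of all features, and 2 higher in each comparison with WT, the latter near the 19.4% and 19.9% of all features. P-glycoprotein Abcb1a read 252, 19.4 and 11.5 CPM and the breast cancer resistance protein Abcg2 55.9, 0.947 and 1.80 CPM. Abcc2, which exports glutathione and glucuronide conjugates, read 153, 11.6 and 0.137 CPM, and so it differed between LApc and LApcL as well, by 84.9-fold. The medians of the 6 lists in LApc against WT ran from -2.64 for the efflux transporters to -0.20 for cofactor supply, each below the 0.30 of all features.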

How the data were processed

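The deposited matrices held whole UMI counts per gene and barcode, made by the authors with Cell Ranger from 10x Genomics 3′ libraries on mm10. The methods name version 2.1.1 and the file headers 6.0.1. No normalisation had been applied to the deposited counts. Each barcode had at least 500 UMIs. No doublets were removed for the main values. The automatic threshold of a doublet score marked 0 to 2 barcodes per library and so did not work, and removing the highest scores at 0.8% per 1000 barcodes was another setting. WT held 87185429 UMIs in all, LApc 118867221 and LApcL 112057783.

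From these counts, UMIs were summed over unshared barcodes with at least 10000 UMIs and at most 20% mitochondrial UMIs and scaled to CPM. Differences are log2((CPM + 1)/(CPM + 1)), which understates genes of low level, and folds are ratios of CPM. With 1 library per group there was no test. Intervals are exact conditional binomial (ratios), Poisson (levels) or Clopper-Pearson (shares), at 95%. A level of 0 was set to 3 UMIs for a bound. A UMI of a 3′ library stands for 1 molecule whatever the length of the gene.

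The intervals' code was tested on simulated data. Named members were those with at least 100 CPM in 1 library, the 5 highest and 5 lowest log2 ratios past 2-fold in each of the 3 comparisons, and the top 2 of each family per library. Other named members were chosen after their values were seen: Cyp1a1, Cyp2a5, Cyp2c65, Cyp2c68, Cyp2d9, Cyp2d22, Cyp2e1, Cyp4b1, Gstp1, Gstp2, Gstp3 and Ugt1a1, and those near the minimum. From the pathway lists the text names the top 3 of each list and genes at least 4-fold apart with at least 50 CPM. Nqo1, Nr1i2, Nr1i3, Ahr and Hnf4a were chosen after their values were seen. The members, lists and motifs were chosen with earlier results of these data known.

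Clustering used scanpy 1.11.5 with 2000 variable genes, 20 components, 20 neighbours and Leiden resolution 0.5 on counts scaled to 10000. A cluster was named from at least 3 markers in its top 50 genes and at least 1 in its top 10. Joint clustering of the libraries, without integration, was added after seeing the data. Gene positions follow GENCODE M21 on GRCm38, and promoters RefSeq on GRCm38.p6. Shared 3′ sequence was searched as 60-base words in the last 400 bases of each transcript. The analysis ran in Python 3.11.15 with numpy 2.4.6 and scipy 1.17.1. The values were recomputed under 14 other settings, and under 2 more that were chosen after seeing the data.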

Additional observations from a re-analysis of the deposited data

Results flagged for a closer look

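The barcodes shared between libraries, which were left out of the library levels and ratios above, held 4 members above 20 CPM that were far lower in the barcodes used. Cyp1b1 read 172.5 CPM in the shared barcodes of WT, 155.3 in those of LApc and 162.7 in those of LApcL, against 0.102, 0.880 and 2.20 CPM in the barcodes used. Cyp4b1 read 154.2, 148.5 and 149.5 CPM against 20.6, 1.87 and 0.435, and Sult1a1 168, 154 and 156.7 CPM against 0.0409, 1.49 and 4.67. Cyp2d22 read 38.48, 31.85 and 28.76 CPM against 6.07, 0.913 and 0.0373. The shared barcodes carried Pecam1 at 968 to 1057 CPM in all 3 libraries, at a median depth of 1499 to 2164 UMIs. Their levels of the 4 genes were close between libraries that otherwise differed, and since the same barcodes recur in the 3 libraries they are not 3 separate samples.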

How the results depend on the processing

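Of 46 alternative values for the medians, 39 lay within the interval of the value above and 7 did not, of 92 for counts of members 84 stayed within 1.5 times and 8 did not, and of 184 for family sums 113 lay within the interval and 71 did not. Of 1472 values for single genes 998 lay within the interval and 473 did not, and 1 more, Cyp2d10, was at least 2-fold apart and changed sign. Genes less than 2-fold apart changed sign too, with values outside their interval: without enterocyte-like WT barcodes Cyp4f13 was 0.66 and 0.31, Sult2b1 0.33 in LApc and Cyp2d34 0.14 in LApcL, at no more than 10% mitochondrial UMIs Cyp2d34 was -0.06 in LApc, and with barcodes weighted equally Gsto1 was 0.10 in LApcL against LApc. No median, count or sum with an interval away from 0 reversed. Values here are log2 differences, in the order LApc against WT, LApcL against WT and, where given, LApcL against LApc. The cause of a shift was not tested. With a pseudocount of 0.1 the medians were -2.37, -2.41 and -0.15, higher members 12, 5 and 9, and lower members 13 between LApcL and LApc. With a pseudocount of 10 the medians against WT were -0.55 and -0.58, higher members 2, 0 and 1, and lower members 2 between LApcL and LApc, with Cyp at -4.87 and -5.00, Ugt at -1.58 and -1.70, Sult at -3.05 and -3.04 and Gst at -2.43 for LApcL against WT. With 1 UMI as the minimum per member the medians were -0.39 and -0.47. From 500 UMIs per barcode, Gst was -2.06 and -2.40 and Ugt -1.70 and -1.86. At no more than 10% mitochondrial UMIs, Gst was -1.96 and -2.28, Ugt -1.58 and -1.72, Sult -3.35 and -3.36, and Cyp -5.10 for LApcL. With no mitochondrial limit, Gst was -2.08 and -2.40, Ugt -1.70 and -1.83, and Cyp -5.19 for LApcL. With median-of-ratios factors, Gst was -2.53, -2.83 and -0.29, Cyp -5.42 and -5.53, Ugt -2.07 and -2.17, and Sult -3.93 and -3.90. Without the 50 most abundant genes in the total, Gst was -2.31 and -2.65, Cyp -5.21 and -5.35, Ugt -1.85 and -1.99, and Sult -3.74 and -3.74. With barcodes weighted equally, Gst was -2.09, -2.38 and -0.29, Cyp -4.96, -5.02 and -0.062, and Ugt -1.57, -1.64 and -0.073. Without enterocyte-like barcodes of the joint clustering in WT, Gst was -1.44 and -1.77, Cyp -3.43 and -3.57, Ugt -1.19 and -1.32, and Sult -2.52 and -2.52. Without cluster 6 of LApc, which has Npy among its leading genes, LApc against WT gave Gst -2.20, Cyp -5.08, Ugt -1.74 and Sult -3.45, and LApcL against LApc gave Gst -0.24, Cyp -0.070 and Ugt -0.052. There Cyp2d10 reversed to -0.26 in LApc against WT, Gstm7 was 1.19 instead of 2.00 and Gstm5 1.12 instead of 1.68, and Gstm5 in LApcL against LApc was -0.31 instead of -0.87. Without secretory-like clusters, Cyp was -5.06 and -5.20, Ugt -1.70 and Sult -3.61 for LApc, and Gst -2.47 for LApcL against WT and -0.36 against LApc. With marked doublets removed, Cyp was -5.09 for LApcL against WT. Both added settings were chosen after seeing the data. WT without enterocyte-like clusters of its own clustering could not be run, because no WT cluster was named enterocyte-like there. No paired analysis was possible because each group has 1 library. Depth limits genes near 3 UMIs, that is 0.0614, 0.0330 and 0.0373 CPM in the 3 libraries.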
